A study of Mus musculus with 8 samples.

Results

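The genes described here code for proteins that fold and check newly made secreted proteins in the endoplasmic reticulum (ER), and for factors of the unfolded protein response that raise the amounts of such proteins. The set was defined by name, and 10 genes make it up: Xbp1, Atf6, Ddit3, Pdia3, Pdia4, Pdia6, Calr, Canx, Sdf2l1 and Creld2. All probes annotated with one of these symbols were taken, which gave 9 probes for 8 of the 10 genes, out of 36591 probes and 15123 genes tested. Canx had 2 probes and each of the other 7 genes had 1, and no probe carried the symbol or the gene identifier of Atf6 or Pdia6, so the expression of these genes was not analysed here.

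The samples were ileum RNA of mouse embryos from LGR5+/- parents, and each LGR5-/- embryo was compared with an LGR5 +/+ embryo on MEEBO arrays of long oligonucleotides. There were 8 arrays, which held 4 pairs of embryos with the dyes exchanged on the second array of each pair, so that n is 4. The labels give the age as E18.5, and the design text extends it by up to a day and names 3 parental couples, so at least 2 of the 4 pairs shared parents. Neither genotype has a named treatment, and the sources used here do not give the strain background or the structure of the null allele. LGR5 binds R-spondins and marks intestinal stem cells, and the question was how gut cell lineages form in the fetus when it is missing.

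Secreted and membrane proteins enter the ER through the translocon, are bound by chaperones, and receive disulfide bonds from protein disulfide isomerases. Glycoproteins among them are also held by the lectin chaperones as they fold. When unfolded protein builds up, the sensors IRE1, PERK and ATF6 send signals that end in the transcription factors XBP1, ATF4 and cleaved ATF6, which raise chaperones, folding enzymes and degradation factors. In the gut this system is known for its use by cells with a heavy secretory load, chiefly goblet and Paneth cells, and mice that lack Xbp1 in the intestinal epithelium lose Paneth cells. The splicing of Xbp1 mRNA and the cleavage of ATF6 protein carry much of the signal, and the probes used here measured neither.

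Because promoters of this system share a control sequence, the 250 bases before the annotated start were read for the members from RefSeq (mouse build GRCm38.p6), which had a window for 9 of the 10 genes. The ER stress response element (ERSE) joins CCAAT and CCACG with 9 bases between them, and in either orientation it was found before 4 of these 9 genes (44.4%), against 35 of 27025 genes in the whole table (0.13%) and 7 of 111 other ER pathway genes (6.31%). The 4 genes were Pdia6, Calr, Canx and Creld2. For this and the following elements only exact matches within the 250 bases were counted. A site with a changed base, or one farther from the start, would be missed, so a window without a match may still have such a site. The related element ERSE-II, which joins ATTGG and CCACG with 1 base between them, and the element TGACGTGG (UPRE) matched 0 of the 9 windows on either strand, against 0.037% and 0.603% of all genes. The composite site TGATGNAA, a form of the element that ATF4 and C/EBP factors bind, also matched 0 of 9, against 3.91% of all genes. The members were named for their part in this response, so these shares describe the windows and test nothing, and each ERSE match contains a CCAAT and a CCACG that were also counted on their own.

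The windows of 4 measured members are shown, because 3 of them hold the element and the other, Sdf2l1, had ratios of the same signs as Creld2 and does not. Capitals mark the ERSE, which lies at positions -126 to -108 from the start in Creld2 (opposite strand), -162 to -144 in Calr (opposite strand) and -145 to -127 in Canx (same strand). The windows lie at chr15:88819396-88819645 on the plus strand for Creld2, at chr16:17132384-17132633 on the minus strand for Sdf2l1, at chr8:84846932-84847181 on the minus strand for Calr and at chr11:50325674-50325923 on the minus strand for Canx. Sdf2l1 held CCAAT on either strand at 3 places and CCACG at 3 places, but not at the spacing of the element.
Creld2: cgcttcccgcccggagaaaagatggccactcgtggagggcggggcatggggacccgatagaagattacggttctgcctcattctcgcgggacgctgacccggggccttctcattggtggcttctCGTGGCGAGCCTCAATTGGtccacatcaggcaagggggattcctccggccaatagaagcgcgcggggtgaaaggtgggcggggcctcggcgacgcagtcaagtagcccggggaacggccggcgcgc
Sdf2l1: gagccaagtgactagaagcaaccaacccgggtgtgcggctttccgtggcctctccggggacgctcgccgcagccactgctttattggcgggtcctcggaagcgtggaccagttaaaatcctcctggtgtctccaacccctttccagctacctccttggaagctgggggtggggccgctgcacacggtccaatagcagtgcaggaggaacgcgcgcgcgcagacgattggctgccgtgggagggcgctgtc
Calr: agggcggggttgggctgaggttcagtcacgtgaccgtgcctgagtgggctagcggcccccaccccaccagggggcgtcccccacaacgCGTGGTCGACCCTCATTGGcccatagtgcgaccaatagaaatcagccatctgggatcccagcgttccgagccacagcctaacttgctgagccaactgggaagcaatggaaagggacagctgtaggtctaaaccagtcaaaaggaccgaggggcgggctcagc
Canx: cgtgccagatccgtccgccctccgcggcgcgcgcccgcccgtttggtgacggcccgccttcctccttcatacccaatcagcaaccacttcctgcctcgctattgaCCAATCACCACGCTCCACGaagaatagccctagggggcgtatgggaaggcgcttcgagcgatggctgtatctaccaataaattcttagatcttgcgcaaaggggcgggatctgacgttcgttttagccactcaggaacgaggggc

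All values below are log2 ratios of the null over the wild-type sample, averaged over the 2 arrays of a pair, and given as mean ± SD over the 4 pairs. They are differences, not levels, so the amounts of different genes, and the presence of ileal markers as such, could not be read from them. In whole-tissue RNA, fewer cells of a type and less RNA per cell cannot be told apart. The base of the logarithm was taken as 2, and the direction was set by Lgr5, whose ratio was below 0 on all 8 arrays (-1.61, -0.92, -1.92 and -1.93 in pairs 1 to 4). Lgr5 therefore gives no independent check of the labels. Ratios of the arrays of a pair correlated across probes at 0.312 to 0.783.

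The pairs also differed in genes outside the ER set, and these values stand here because several results below lean on 1 pair. In pair 1 the Y-linked genes Eif2s3y and Kdm5d stood at -4.56 and -2.42, and Hoxd10, a posterior Hox gene, at -3.81, with the other pairs at -0.17 to 0.90 for all 3 genes. In pairs 1 to 4 the median of 10 goblet cell markers was -0.95, 0.0053, 0.060 and -0.25. The median of 8 Paneth cell markers was 1.83, 0.11, 0.90 and 0.16, and that of 14 immediate early genes was 0.62, -0.082, 0.14 and 0.18. The median of 11 exocrine pancreas markers was -0.12, -0.020, 1.37 and 0.089, and liver (13 genes) and erythroid markers (8 genes) stood at 1.98 and 1.45 in pair 3. The 2 widest genes of each list included Zg16 (-2.86 in pair 1) and Retnlb (-2.01 in pair 1) for goblet cells, Defa20 (4.42 in pair 1) and Reg3g (2.93 in pair 1) for Paneth cells, and Pnliprp1 (3.43 in pair 3) and Ctrb1 (2.79 in pair 3) for the pancreas. In pair 1, 6 of the 8 Paneth markers were above 0, while Itln1 stood at -0.83 and Mmp7 at -0.050. Reg3g stood at -0.28 in pair 3, where the Paneth median was 0.90. For the liver the 2 widest were Serpina1a and Fgb (2.12 and 2.08 in pair 3), for enterocytes Fabp1 (2.52 in pair 3) and Fabp2 (0.67 in pair 1), and for erythroid cells Slc4a1 and Hbb-b2 (1.79 and 1.64 in pair 3). Fabp1 did not stand for its list in pair 3, where the enterocyte median was -0.070 and 4 of 9 genes were above 0. In pair 1 that median was 0.67. All 10 goblet, 8 Paneth, 11 pancreas, 13 liver and 8 erythroid markers differed between the pairs by the test described below. So did 8 of 9 enterocyte markers and 11 of 14 immediate early genes, against 30.9% of all genes. The part of these markers in the results on the ER genes was not tested.

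**Figure D1:**
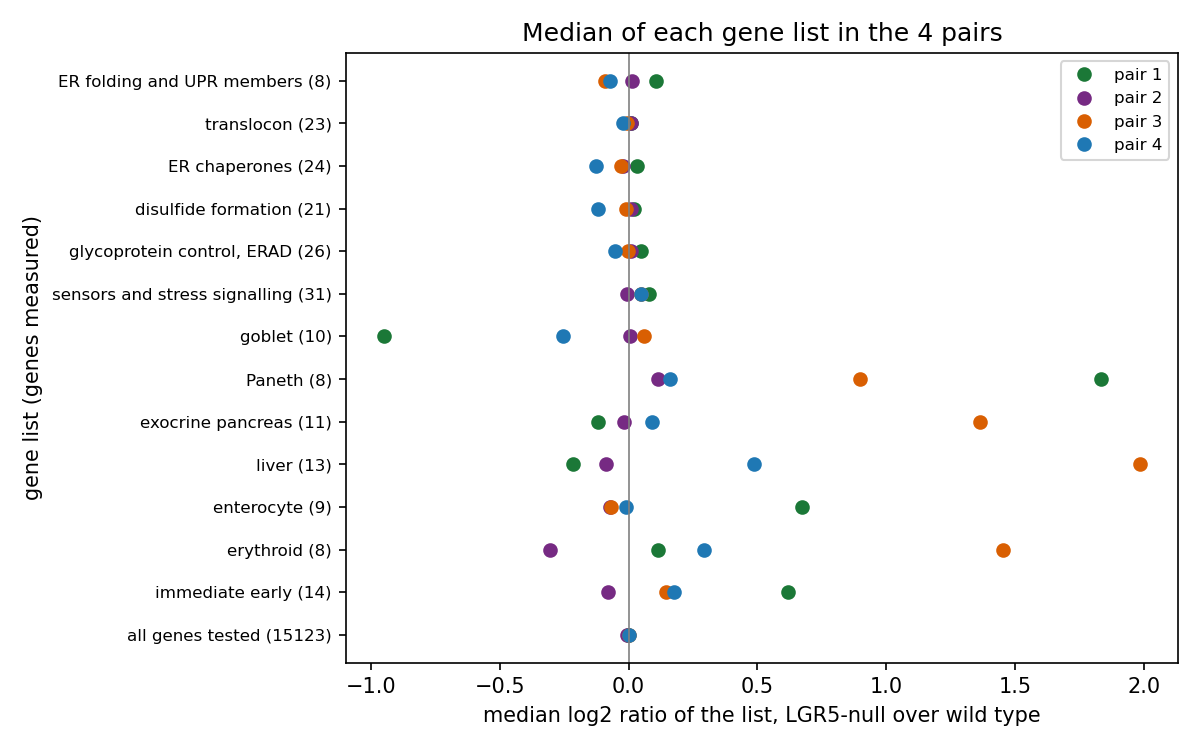
Median log2 ratio (null over wild type, x axis) of each gene list (y axis, with the number of genes measured) in the 4 pairs, 1 point per pair. The medians of the ER lists lay between -0.13 and 0.11, while goblet, Paneth, pancreas, liver and erythroid medians ran from -0.95 to 1.98.

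For no member did the mean ratio of null to wild-type ileum pass the test. In limma's fit across all probes, 0 of the 9 member probes had an adjusted p under 0.05, and 0 of all 36591 probes did (0%). At an unadjusted p under 0.05 there were also 0 of the 9, against 2003 of all probes (5.47%). Lgr5, the targeted gene, did not pass at the gene level either, with a mean of -1.59 (limma adjusted p = 0.656, the lowest over all genes). Failing this test therefore does not show that a member was unchanged. Not 1 of the 9 kept its sign through the 4 pairs, which 14.4% of all probes did, and at the gene level 0 of 8 did, against 15.6% of genes. The mean ratios of the 8 genes ran from -0.047 for Pdia3 to 0.26 for Ddit3, with a median of 0.012 beside 0 for all genes. The median of the 8 genes in each pair was 0.11, 0.014, -0.093 and -0.071, so it was above 0 in pairs 1 and 2 and below it in pairs 3 and 4.

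**Figure D2:**
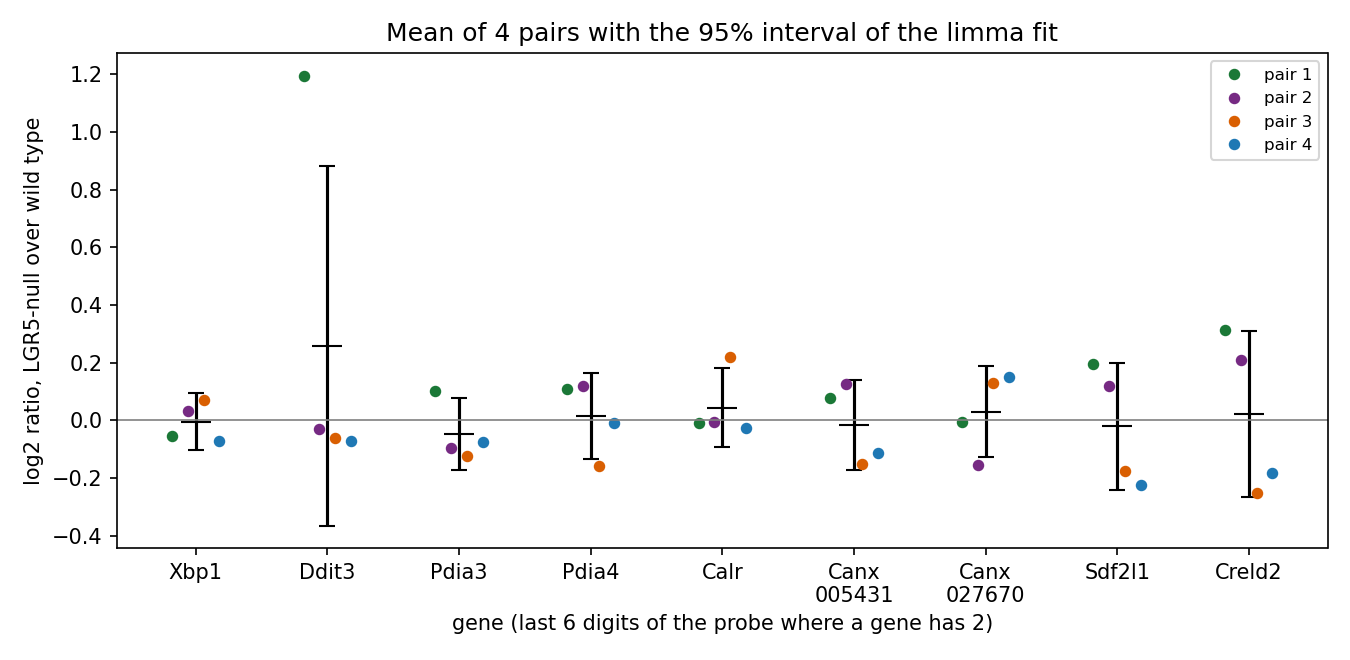
Mean log2 ratio (null over wild type, y axis) of each member probe, with the 95% interval of the limma fit (bars) and the 4 pair values (points). Every interval includes 0, and that of Ddit3, from -0.37 to 0.88, is the widest.

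Xbp1, the transcription factor made by IRE1-dependent splicing, stayed near 0 in every pair. Its probe gave -0.053, 0.034, 0.071 and -0.071 in pairs 1 to 4, averaging -0.0048 ± 0.068 (SD, n = 4; limma adjusted p = 0.987). Pairs 2 and 3 were above 0 and pairs 1 and 4 below, and the arrays of pair 4 disagreed in sign (0.080 and -0.22). The 95% interval of the mean, -0.10 to 0.095, corresponds to 0.93-fold to 1.07-fold, and its range between pairs was wider than that of 28.9% of all probes.

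Ddit3, which codes for CHOP, a factor that PERK and ATF4 signalling raises in lasting stress and that favours cell death, was high in pair 1 alone. Its probe stood at 1.20 in pair 1 and at -0.031, -0.063 and -0.071 in pairs 2 to 4. On the arrays of pair 1 it stood at 1.25 with the null sample in Cy5 and at 1.14 with it in Cy3, so both dye orientations showed it. The mean was 0.26 ± 0.63 (SD, n = 4; limma adjusted p = 0.872), with an interval from 0.776-fold to 1.84-fold. Without pair 1 the mean was -0.055. The difference between pairs was larger than the error between the arrays of a pair (moderated F-test of limma, adjusted p = 0.000248), and the range of 1.27 was wider than that of 98.3% of all probes.

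Protein disulfide isomerases make and rearrange disulfide bonds in folding proteins. Pdia3 (ERp57), which works on glycoproteins held by calreticulin and calnexin, gave 0.10, -0.095, -0.12 and -0.074 in pairs 1 to 4, averaging -0.047 ± 0.10 (SD, n = 4; limma adjusted p = 0.879). Only pair 1 was above 0. Pdia4 (ERp72), a larger member of the family, gave 0.11, 0.12, -0.16 and -0.0080, averaging 0.016 ± 0.13 (SD, n = 4; limma adjusted p = 0.966). Its intervals allow changes from 0.913-fold to 1.12-fold, and those of Pdia3 from 0.887-fold to 1.06-fold.

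The lectin chaperones hold glycoproteins through a trimmed sugar chain. Calr, the soluble calreticulin, gave -0.0080, -0.0060, 0.22 and -0.028 in pairs 1 to 4, averaging 0.045 ± 0.12 (SD, n = 4; limma adjusted p = 0.899). Pair 3 was the high one, on both of its arrays (0.26 and 0.18), and that pair also had the highest pancreas, liver and erythroid medians. Without pair 3 the mean was -0.014.

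Canx, the membrane-bound calnexin, was read by 2 probes that ran in opposite directions. Probe mMC005431 gave 0.077, 0.13, -0.15 and -0.11 in pairs 1 to 4, and probe mMR027670 gave -0.0055, -0.16, 0.13 and 0.15. Their means were -0.016 ± 0.14 and 0.030 ± 0.14 (SD, n = 4; limma adjusted p = 0.968 and 0.939), so the average of the probes, 0.0071 ± 0.024, hides pair values of either sign. The sources used here do not say which transcripts each probe reads.

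Sdf2l1 and Creld2, small soluble ER proteins whose mRNAs are known to rise strongly in ER stress, varied most between pairs after Ddit3. Creld2, which has disulfide isomerase activity, gave 0.31, 0.21, -0.25 and -0.18 in pairs 1 to 4, averaging 0.023 ± 0.28 (SD, n = 4; limma adjusted p = 0.977). Sdf2l1, a partner of ER DnaJ co-chaperones, gave 0.20, 0.12, -0.17 and -0.22, averaging -0.021 ± 0.21 (SD, n = 4; limma adjusted p = 0.971). Both were above 0 on all 4 arrays of pairs 1 and 2 and below 0 on all 4 arrays of pairs 3 and 4.

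Creld2 also shifted with the dye. With the null sample in Cy5 it stood at 0.40, 0.33, -0.057 and -0.040 in pairs 1 to 4, and with that sample in Cy3 at 0.23, 0.089, -0.45 and -0.32. The Cy5 value was the higher in every pair. The dye term of the fit was 0.13 for Creld2 (limma adjusted p = 0.0463), and it was past the threshold for 1 of the 9 member probes, against 3.6% of all probes. It cancels in the pair mean. Leaving out any pair took its adjusted p to between 0.0978 and 0.18. In the gene-level fit the dye term of Creld2 was not past the threshold (limma adjusted p = 0.0555).

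**Figure D3:**
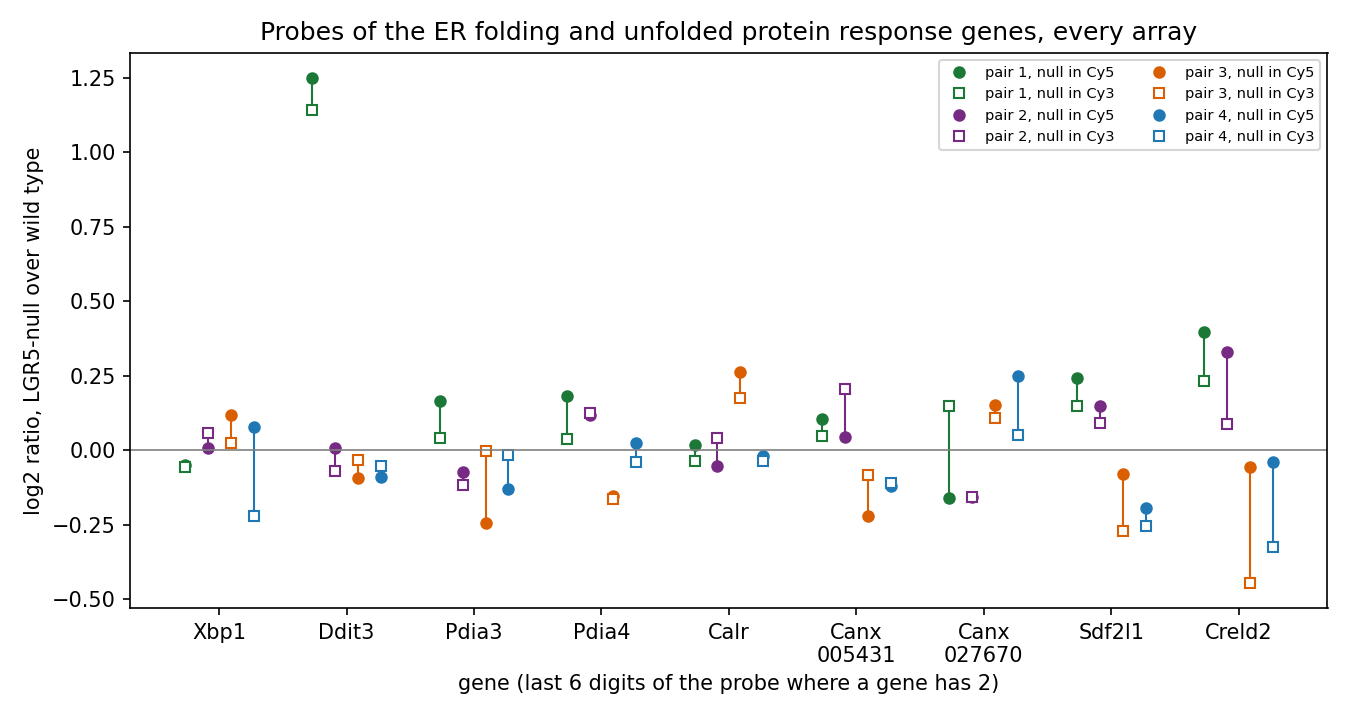
Log2 ratio (null over wild type, y axis) of each member probe on all 8 arrays; colours are pairs, filled circles have the null sample in Cy5, open squares in Cy3, and a line joins the arrays of a pair. Ddit3 stands at 1.14 and 1.25 in pair 1, and Creld2 and Sdf2l1 lie above 0 in pairs 1 and 2 and below 0 in pairs 3 and 4.

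The embryo pairs differed in 3 of the 9 member probes by limma's moderated F-test at an adjusted p under 0.05, where 22.9% of all probes passed. These were Ddit3 (adjusted p = 0.000248), Creld2 (0.00557) and Sdf2l1 (0.0106), followed by Pdia4 at 0.0608, Canx mMC005431 at 0.0797, Calr at 0.0984, Canx mMR027670 at 0.252, Pdia3 at 0.335 and Xbp1 at 0.593. At the gene level, where Pdia4 had an adjusted p of 0.0349, 4 of 8 passed against 30.9% of genes. The error in this test is that between arrays of the same RNA, so it describes differences between embryo pairs and not the genotype. Without pair 1 none of the 9 passed, with Creld2 at an adjusted p of 0.0514 and Sdf2l1 at 0.0968, and over all probes the number passing went from 8384 to 1564. Without the dye term Creld2 had an adjusted p of 0.104.

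Over the 9 member probes and 4 pairs, both arrays of the pair had the same sign in 30 of 36 cases. This share was not counted over all probes, so it cannot be called high or low for the members. The same signs as in Creld2, above 0 in pairs 1 and 2 and below 0 in pairs 3 and 4, were found in 4 of the 9 member probes, namely Pdia4, Canx mMC005431, Sdf2l1 and Creld2, against 6.18% of all probes. Pdia4 had them only by -0.0080 in pair 4, where its arrays stood at 0.024 and -0.040. At the gene level, with the Canx probes averaged, 3 of the 8 members had these signs, against 5.3% of all genes. The opposite signs were found in Canx mMR027670 alone among the members, and in 6.71% of all probes. Of the 124 other ER pathway genes 14 had the signs of Creld2 (11.3%), against 5.3% of all genes, and 5 had the opposite signs (4.03%), against 7.02% of all genes. Several of the 14 had the signs of Creld2 only by a value near 0. Sec61a1, Srprb, Sil1 and Prkcsh stood at 0.0055 to 0.008 in pair 1, and Nfe2l2 at 0.0057 in pair 2. Among the 14 were Hspa5, the BiP chaperone, at 0.091, 0.17, -0.12 and -0.024 in pairs 1 to 4, and P4hb, the main disulfide isomerase, at 0.056, 0.079, -0.16 and -0.18. Tram1, of the translocon, gave 0.13, 0.12, -0.16 and -0.14. Both arrays of a pair had the same sign in 3 of 4 pairs for Hspa5 and for P4hb, and in all 4 for Tram1. This sign pattern was chosen after the values were seen, so the counts describe it and are no test. Which pairs share parents was not known here.

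Other genes of the pathway were taken from 5 lists with 124 measured genes of 137. Not 1 of the 124 passed limma's test of the genotype (0% of all 15123 genes did), and 10 (8.06%) had an unadjusted p under 0.05, against 956 of all 15123 genes (6.32%). A mean above 0 was found for 61 and below 0 for 63, with a median of -0.0020, and 18 of 124 (14.5%) had the same sign in all 4 pairs, against 15.6% of all genes. Between pairs, 48 of 124 differed (38.7%), against 30.9% of all genes.

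Of the translocon list 23 of 25 genes were measured, 13 with a mean above 0 and 10 below, with a median of 0.022. Sec11c and Spcs1, subunits of signal peptidase, were below 0 in all 4 pairs, at -0.14 ± 0.10 and -0.089 ± 0.090 (SD, n = 4; limma adjusted p = 0.757 and 0.806). The arrays of a pair had opposite signs in all 4 pairs for Sec11c and in 2 of 4 for Spcs1. Sec61g, a subunit of the channel, stood at -0.14, -0.19, 0.60 and 0.057 in pairs 1 to 4, and Srp9, of the signal recognition particle, at -0.37, 0.084, -0.015 and -0.024. Sec61g was thus high in pair 3 and Srp9 low in pair 1.

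ER chaperones and prolyl isomerases gave 24 measured genes of 26, 11 with a mean above 0 and 13 below, with a median of -0.053. The members of this list with the largest means of 1 sign in all pairs were prolyl isomerases, Fkbp7 at -0.25 ± 0.20 and Fkbp9 at -0.24 ± 0.17 (SD, n = 4; limma adjusted p = 0.748 and 0.727). Serpinh1, the collagen chaperone, was among the widest in range, at -0.48, -0.091, 0.034 and -0.20 in pairs 1 to 4. Beside these, the collagen gene Col3a1 stood at -0.49, -0.21, -0.29 and -0.14 and averaged -0.28 ± 0.15 (SD, n = 4; limma adjusted p = 0.727). Other matrix genes had their lowest value in pair 4, where Col3a1 was nearest to 0. Col1a1 stood at -0.35, 0.0055, -0.14 and -0.55 in pairs 1 to 4 and Col1a2 at -0.28, -0.13, -0.041 and -0.46, while the proteoglycan gene Dcn averaged -0.56 ± 0.30 (SD, n = 4) and was below 0 in all 4 pairs. The part of stromal cells in the ER values was not tested. Fkbp11, an isomerase of secretory cells, stood at 0.25, -0.19, 0.58 and -0.11, so it was highest in pair 3. The pancreas, liver and erythroid medians were also highest in that pair, and their part in the Fkbp11 values was not tested.

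Of the disulfide formation list 21 of 23 genes were measured, 7 with a mean above 0 and 14 below, with a median of -0.019. Gpx8, an ER peroxidase, and Erp29, a redox-inactive relative of the isomerases, were below 0 in all 4 pairs, at -0.18 ± 0.078 and -0.13 ± 0.065 (SD, n = 4; limma adjusted p = 0.727 for each). Agr2, the isomerase that goblet cells need for mucin folding, stood at -1.51, -0.18, 0.056 and -1.20 in pairs 1 to 4, and it also belongs to the goblet list. Pdia5 stood at -0.59, 0.090, -0.062 and -0.33, so both were lowest in pair 1, next lowest in pair 4, and near 0 in pairs 2 and 3. The goblet median had the same low pairs, and so did the collagen genes Col1a1 and Col1a2, while Col3a1 was nearest to 0 in pair 4. The part of goblet or stromal cells in the Agr2 and Pdia5 values was not tested.

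Glycoprotein quality control and ER-associated degradation (ERAD) gave 26 measured genes of 31, 12 with a mean above 0 and 14 below, with a median of -0.0060. Ube2g2, a ubiquitin-conjugating enzyme of ERAD, and Calr3, a testis relative of calreticulin, were above 0 in all 4 pairs, at 0.16 ± 0.15 and 0.036 ± 0.038 (SD, n = 4; limma adjusted p = 0.80 and 0.831). Both arrays agreed in sign in 1 of 4 pairs for Ube2g2 and in 2 of 4 for Calr3. Herpud1, a stress-induced ERAD adaptor, stood at 0.59, 0.28, 0.012 and -0.064 in pairs 1 to 4, highest in the pairs in which Creld2 was high. Vcp, the ATPase that pulls proteins out of the ER, stood at -0.21, 0.072, -0.090 and -0.57.

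The list of sensors and stress signalling held 31 measured genes of 33, 19 with a mean above 0 and 12 below, with a median of 0.040. Eif2ak1, a kinase that phosphorylates the same initiation factor as PERK, was above 0 in all 4 pairs at 0.13 ± 0.056, and Creb3l1, a membrane-bound relative of ATF6, was below 0 in all 4 at -0.16 ± 0.13 (SD, n = 4; limma adjusted p = 0.727 and 0.774). Of the sensor genes, Ern1 (IRE1 alpha) averaged 0.045 ± 0.073, Eif2ak3 (PERK) 0.092 ± 0.12 and Ern2, the IRE1 form of gut goblet cells, -0.18 ± 0.32 (SD, n = 4). Creb3l3, a relative made in liver and enterocytes, stood at 1.57, -0.51, 0.49 and 0.56 in pairs 1 to 4, and the enterocyte median of 9 genes at 0.67, -0.073, -0.070 and -0.0090. The liver median of 13 genes was -0.22, -0.087, 1.98 and 0.49. The part of either cell type in the Creb3l3 values was not tested.

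In pair 1, where Ddit3 was high, 19 of the 31 genes of this list were above 0, with a median of 0.080. Of all 15123 genes, 7468 were above 0 in pair 1. In pairs 2 to 4 the counts for the list were 14, 18 and 21 of 31, so the count of pair 1 was not particular to it. Chac1, which ATF4 and CHOP raise in cultured cells, stood at -1.46 in pair 1 and at 0.36, 0.73 and 0.27 in pairs 2 to 4. The following genes were chosen after their values were seen. Asns, an amino acid response target of ATF4, stood at -0.71, 0.92, 0.53 and -0.026, and Atf5 at -0.48, 0.29, 0.62 and 0.30. Atf3 stood at 1.70, 0.15, -0.085 and 0.14, Ppp1r15a (GADD34) at 0.83, -0.041, 0.63 and 0.078, and Ddit4 at 1.25, -0.43, 0.44 and 0.10. Atf4 itself was at -0.0088, -0.0042, 0.093 and 0.15. Atf3 is also an immediate early gene, and Fos stood at 2.10 in pair 1, the pair with the highest immediate early median.

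Ern2 and Creb3l4, a membrane-bound relative of ATF6, were also low in pair 1. Ern2 stood at -0.65, 0.093, -0.058 and -0.097 in pairs 1 to 4, and Creb3l4 at -1.14, 0.13, 0.081 and -0.23. Both were chosen after their values were seen, and other genes of the lists were not low there, such as Fkbp11 at 0.25 and Agr3, a relative of Agr2, at 0.066. Members of the ER set were not low to this extent, since Xbp1 stood at -0.053 in pair 1 and Sdf2l1, Creld2, Pdia3 and Pdia4 stood between 0.10 and 0.31.

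**Figure D4:**
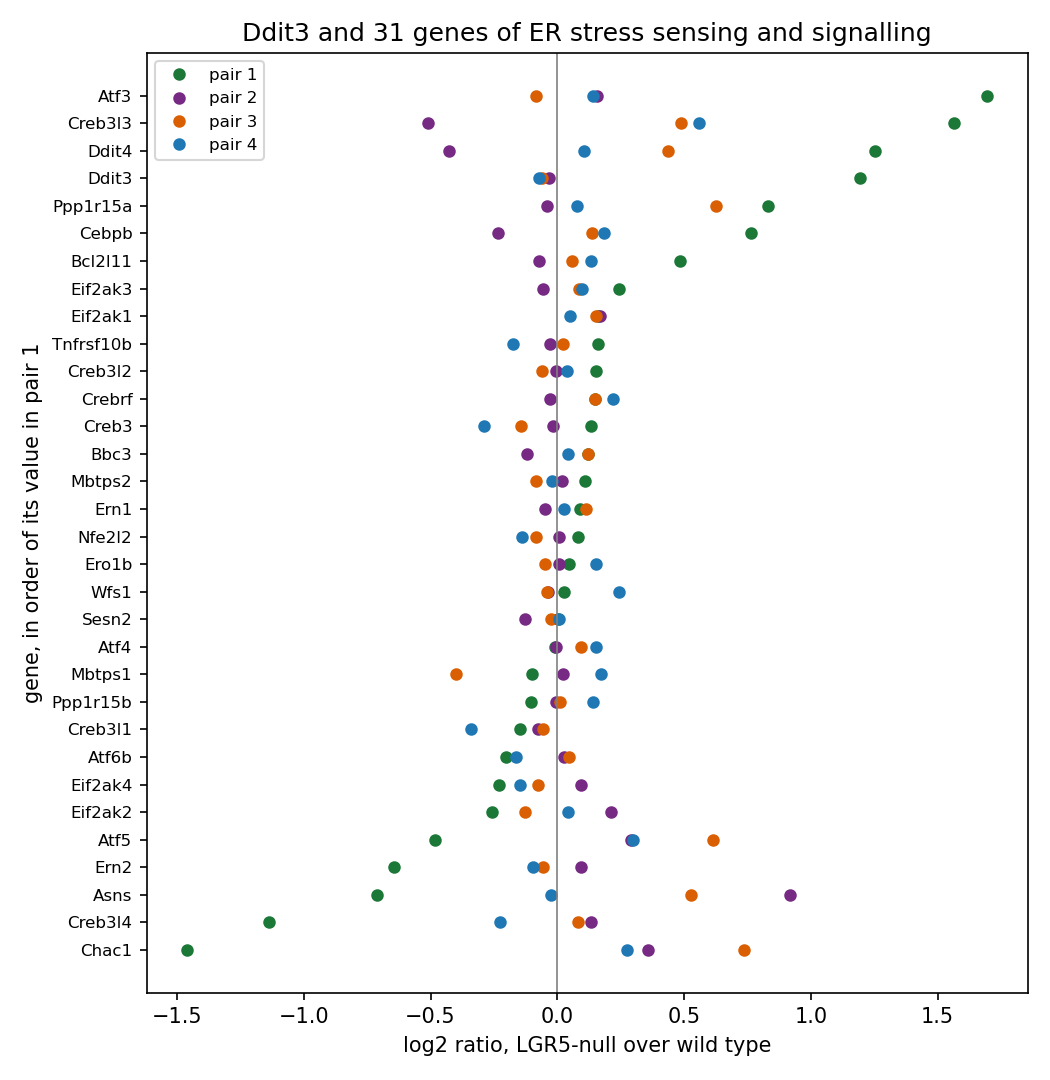
Log2 ratio (null over wild type, x axis) of Ddit3 and 31 genes of ER stress sensing and signalling (y axis, ordered by the value in pair 1), 1 point per pair. In pair 1 the genes spread from -1.46 for Chac1 to 1.70 for Atf3, with Ddit3 at 1.20.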

How the data were processed

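Ileum RNA was measured on 2-colour arrays. The deposited values are 1 log ratio per probe and array, taken here as log2; the sources used here do not give the image analysis, the normalization, the numerator or the log base. Array medians lay between -0.002 and 0.002, so values were used as deposited. The SD of an array ran from 0.144 to 0.326, and this spread was made equal only in 1 alternative. With arrays scaled to a common spread, 3 member probes and 7419 of all probes differed between pairs. Of 38467 probes, 22941 had 1 gene symbol in the platform annotation and 15526 none, and 1876 probes of identifier classes without any annotated gene were left out, leaving 36591.

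The 2 arrays of a pair were averaged, and R 4.3.3 with limma 3.58.1 set the 4 pair means against 0 (moderated, 2-sided, Benjamini-Hochberg adjustment over all probes, threshold 0.05). Probes of a gene were averaged for gene-level values. Differences between pairs were tested by a moderated F-test on 8 arrays with a dye term. With 4 pairs the lowest p of an exact sign-flip test is 0.125, so none was used. Precision is limited by the few arrays. Alternatives were a random block for the pair (a dye term was added to it after seeing the data), each dye orientation alone, other centring, scaling and probe filters, robust eBayes and left-out pairs. The code of the tests was checked on simulated data with independent normal noise, which does not show how often they would find a change in these data.

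The members and lists were chosen with earlier results of these data known. Named beside the members are, per pathway list, 2 genes with the largest mean of 1 sign in all pairs and 2 with the largest range. Other names were chosen after their values were seen, or because the goblet, stromal or pair values bear on a result. Ero1b stands in 2 pathway lists and was counted once in the total.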

Additional observations from a re-analysis of the deposited data

Results flagged for a closer look

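Of 58 items examined (member probes, named genes and list medians), 7 had 1 pair that stood apart, its gap to the nearest other pair filling nearly the whole spread. Chance does this for about 1 in 20 independent items, or 2.9 of 58, and many of these items overlap or were named for a wide range. In pair 1 Ddit3 stood at 1.20 against -0.071 to -0.031 in the other pairs, Atf3 at 1.70 against at most 0.15, Reg3g, an antimicrobial lectin, at 2.93 against at most -0.037, and the enterocyte median at 0.67 against -0.073 to -0.0090. In pair 3 Calr stood at 0.22 against -0.027 to -0.0060, and the exocrine pancreas median at 1.36 against -0.12 to 0.089. In pair 4 Eif2ak1 stood at 0.050 against 0.15 to 0.17.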

How the results depend on the processing

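Under every alternative run, 0 member probes passed the genotype test. The number over all probes went from 0 to 84, and over genes from 0 to 59, with the pair as a random block, and to 12 and 11 when that fit also had a dye term, an alternative chosen after seeing the data; it was 0 in the other alternatives. Probes at an unadjusted p under 0.05 numbered 3155 with the random block, 3943 with the null sample in Cy5 alone and 3318 with it in Cy3 alone, against 2003. Leaving out each pair in turn gave 1234 to 2452 such probes, 0 to 2 member genes of 1 sign in all remaining pairs (3 without pairs 1 and 3), and a median of the members between -0.035 and 0.036. For the difference between pairs the ranges were 0 to 3 member probes, 1564 to 8928 of all probes and 1121 to 4924 genes, with pair 1 setting each lower end, and without the dye term 5019 probes and 3106 genes. No member mean was past the threshold, and each but that of Pdia3 changed sign under at least 1 alternative. Leaving out each pair in turn, the mean ran from -0.030 to 0.017 for Xbp1, -0.055 (without pair 1) to 0.37 for Ddit3, -0.019 to 0.074 for Pdia4, -0.014 (without pair 3) to 0.069 for Calr, -0.0024 to 0.015 for Canx, -0.092 to 0.047 for Sdf2l1 and -0.075 to 0.11 for Creld2. Without pairs 1 and 3 they were -0.051 for Ddit3 and -0.017 for Calr. In Cy5 alone they were 0.040 for Xbp1, -0.013 for Canx and 0.030 for Sdf2l1, in Cy3 alone -0.010 for Pdia4 and -0.11 for Creld2, and Canx gave -0.016 on probe mMC005431 alone. The cause of these sign changes was not tested. The Creld2 dye term, 0.13, stood at 0.12 to 0.15 when a pair was left out and was then no longer past the threshold.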
